A study of Mus musculus with 24 samples.

Results

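The AP-1 genes Fos, Fosb, Fosl2, Jun, Junb, Jund and Atf3, together with Maff, were followed through splenic CD11c+ dendritic cells (DCs) of neonatal mice. Members were taken as the probe sets of the Affymetrix Mouse430A 2.0 array whose only gene symbol was 1 of these names. The 8 genes had 9 probe sets among 22626 tested, on an array that named 12393 genes by a single symbol. Jun had 2 probe sets, 1417409_at, which was the brighter and stands for the gene below, and 1448694_at. The other genes had 1 each, namely Fos 1423100_at, Fosb 1422134_at, Fosl2 1422931_at, Junb 1415899_at, Jund 1449117_at, Atf3 1449363_at and Maff 1418936_at. By RefSeq on GRCm38.p6, Atf3 lies on chromosome 1, Jun on 4, Fosl2 on 5, Fosb on 7, Junb and Jund on 8, Fos on 12 and Maff on 15.

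The question was how the transcription of DCs differed between pups of asthmatic mothers, called asthma-at-risk, and pups of normal control mothers, before and after the pups met allergen. Asthmatic mothers had been injected with ovalbumin (OVA) in alum as pups, on days 3 and 7 of life, then breathed aerosolized OVA and were mated with normal males. Naïve pups were given no allergen. Stimulated pups received a single intraperitoneal injection of 1 mg alum carrying 5 µg OVA, on day 3 of life by the labels and day 4 by the methods, and no aerosol, and DCs were collected from all pups on day 14. Set 1 held 15 arrays, 3 of naïve normal DCs (AF76, AF77 and AF79) and 4 each of naïve at-risk (AF80 to AF83), stimulated normal (AF84 to AF87) and stimulated at-risk DCs (AF88 to AF91). Set 2 held 9 arrays of NuGEN-amplified RNA, with 4 of stimulated normal (AF118 to AF121) and 5 of stimulated at-risk DCs (AF123 to AF127). All mice were BALB/C by the methods, while how many pups gave the RNA of each array was not stated there. Alum was injected with OVA in every stimulated pup, so the allergen comparison is one of OVA and alum together.

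AP-1 is a dimer of basic leucine zipper proteins. FOS proteins pair with JUN proteins and the dimer binds the TRE, a short palindrome with a single central base, while JUN paired with ATF proteins favors the CRE, whose arms lie 1 base further apart. Many of these genes are immediate early genes, copied within minutes of a signal through MAP kinases and with no need for new protein, and in DCs AP-1 acts beside NF-κB on cytokine genes. Maff encodes a small MAF protein, which carries a leucine zipper but no activating domain and pairs with itself or with larger partners such as the CNC proteins.

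Promoter sequences are shown for 4 members that fell in 3 or more comparisons, some of which share arrays. That of Fos is shown too, since immediate early genes are known for signal-responsive elements close to the start site. RefSeq windows on GRCm38.p6, 250 bases before to 50 after the start, were found for 8 of 8 genes, in 10 windows, because Maff has 3 start sites. They lie at chr12:85473640-85473939 (plus strand) for Fos, chr7:19309996-19310295 (minus) for Fosb, chr4:95052173-95052472 (minus) for Jun, chr1:191183284-191183583 (minus) for Atf3 and chr15:79347270-79347569 (plus) for the second Maff start. Capitals mark the CRE-like letters, the CRE core letters and, in Fos, the TATA box.
Fos: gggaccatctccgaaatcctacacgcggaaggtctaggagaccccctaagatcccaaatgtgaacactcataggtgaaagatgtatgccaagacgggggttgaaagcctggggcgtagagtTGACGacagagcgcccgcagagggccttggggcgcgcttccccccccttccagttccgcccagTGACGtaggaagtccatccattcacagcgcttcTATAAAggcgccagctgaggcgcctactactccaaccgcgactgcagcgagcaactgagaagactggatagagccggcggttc
Fosb: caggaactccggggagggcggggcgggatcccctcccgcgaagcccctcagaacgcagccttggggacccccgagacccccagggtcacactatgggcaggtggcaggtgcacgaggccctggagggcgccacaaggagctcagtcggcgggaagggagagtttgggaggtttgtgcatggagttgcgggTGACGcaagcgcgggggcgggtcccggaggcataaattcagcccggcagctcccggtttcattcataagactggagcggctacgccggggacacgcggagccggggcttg
Jun: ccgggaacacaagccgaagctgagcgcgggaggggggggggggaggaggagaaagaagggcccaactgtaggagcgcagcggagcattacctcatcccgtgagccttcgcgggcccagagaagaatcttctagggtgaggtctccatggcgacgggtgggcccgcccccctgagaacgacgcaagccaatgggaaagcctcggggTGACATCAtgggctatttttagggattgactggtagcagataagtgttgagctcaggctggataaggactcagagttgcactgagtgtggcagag
Atf3: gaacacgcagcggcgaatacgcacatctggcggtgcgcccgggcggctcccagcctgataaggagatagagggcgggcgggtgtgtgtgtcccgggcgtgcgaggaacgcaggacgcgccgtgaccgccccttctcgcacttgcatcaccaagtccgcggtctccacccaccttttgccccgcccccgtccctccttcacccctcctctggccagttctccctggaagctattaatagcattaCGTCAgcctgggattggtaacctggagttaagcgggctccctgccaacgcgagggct
Maff: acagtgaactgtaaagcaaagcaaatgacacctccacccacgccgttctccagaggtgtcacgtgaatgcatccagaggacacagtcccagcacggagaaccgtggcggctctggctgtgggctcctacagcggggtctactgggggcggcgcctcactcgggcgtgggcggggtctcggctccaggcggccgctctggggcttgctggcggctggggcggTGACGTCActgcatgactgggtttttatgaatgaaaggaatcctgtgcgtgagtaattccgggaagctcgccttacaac

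The full CRE, TGACGTCA, was in the second Maff window alone of the 10, starting 29 bases before the start site, and in 1.79% of 32851 promoter windows of the same length. The letters TGACNTCA, which include the CRE, were in Jun as TGACATCA, 45 bases before the start, and in 2 of the Maff windows, against 8.83% of all windows. The core TGACG, searched like the others on both strands and part of every CRE, was in 6 of 10 windows, those of Fos, Fosb, Junb and Atf3 and 2 of Maff, against 20.81% of all windows. In Fos it lay 129 and 66 bases before the start, and in Atf3, where it reads CGTCA on the printed strand, 7 before. The TRE, TGAGTCA, was in 0 of the 10 windows and 5.2% of all. TATAAA on the sense strand was found in Fos, 33 bases before the start, and in Junb, where it began at the annotated start site itself, against 8.32% of all windows. These are matches of letters within 300 bases, and binding was not measured.

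The deposited values were linear intensities from robust multi-array averaging (RMA), and all levels below are their log2. Array medians were 8.09 to 8.22 on this scale and lower quartiles 4.99 to 5.09. The sets were preprocessed separately, so levels were compared within a set only. Markers of the labelled cell type, 11 of 13 measured, were bright. Itgax, which encodes CD11c, was at 12.63 to 13.10 in all 24 arrays and Cd74, the MHC class II invariant chain, at 14.22 to 14.37. Naïve arrays carry lower numbers than all stimulated arrays of Set 1. Within each state and set, normal arrays likewise carry lower numbers than at-risk ones. No date is given, and the labels do not say what the numbers stand for. An order of processing that followed them could not be told apart from the allergen or from maternal status.

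No member rose in any comparison. Between at-risk and normal naïve DCs 1 of 8 genes, Maff, fell, with 0.239% of all probe sets called lower. A call here is an adjusted p of 0.05 or less by limma, with Benjamini-Hochberg adjustment over all 22626 probe sets. It also needs a log2 change of at least 0.32 in either direction. These are the thresholds the study gave with its expression results. Between at-risk and normal stimulated DCs over both sets Fosb, Jun and Atf3 fell, 3 of 8 against 0.415% of all probe sets called lower. The same 3 genes fell within Set 2, where 2.04% of all were called lower, whereas 0 of 8 were called in Set 1 alone, where 0.0707% of all probe sets, 16 in number, were called in either direction (1655 at an unadjusted p under 0.05). With OVA and alum 5 of 8 genes, Fosb, Jun, Junb, Atf3 and Maff, fell in normal pups and the same 5 in at-risk pups, where 5.76% and 3.46% of all probe sets were called lower. Both comparisons, and the naïve and Set 1 maternal ones, draw on the same 15 arrays and are not independent of each other. Nor is the comparison over both sets independent of those within Set 1 and Set 2, whose stimulated arrays it holds.

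Groups that did not overlap, with every array of the first below every array of the second, give another view of the same values. In naïve DCs this held for 2 of 8 genes, Atf3 and Maff, in the at-risk group, and for 5.39% of all probe sets. In stimulated DCs of Set 1 it held for Junb only of the 8, against 3.47%, and in those of Set 2 for Fosb, Jun and Atf3, against 4.47%. After OVA and alum it held for 5 genes in normal pups (Fos, Fosb, Jun, Atf3 and Maff), against 10.3%, and for 6 in at-risk pups (Fosb, Jun, Junb, Jund, Atf3 and Maff), against 8.84%. The median change of the 8 genes was -0.07 in naïve DCs, -0.17 and -0.27 in stimulated DCs of Set 1 and Set 2, and -0.51 and -0.68 with allergen in normal and at-risk pups, while the median of all probe sets lay between -0.015 and 0.004 in these comparisons.

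**Figure D1:**
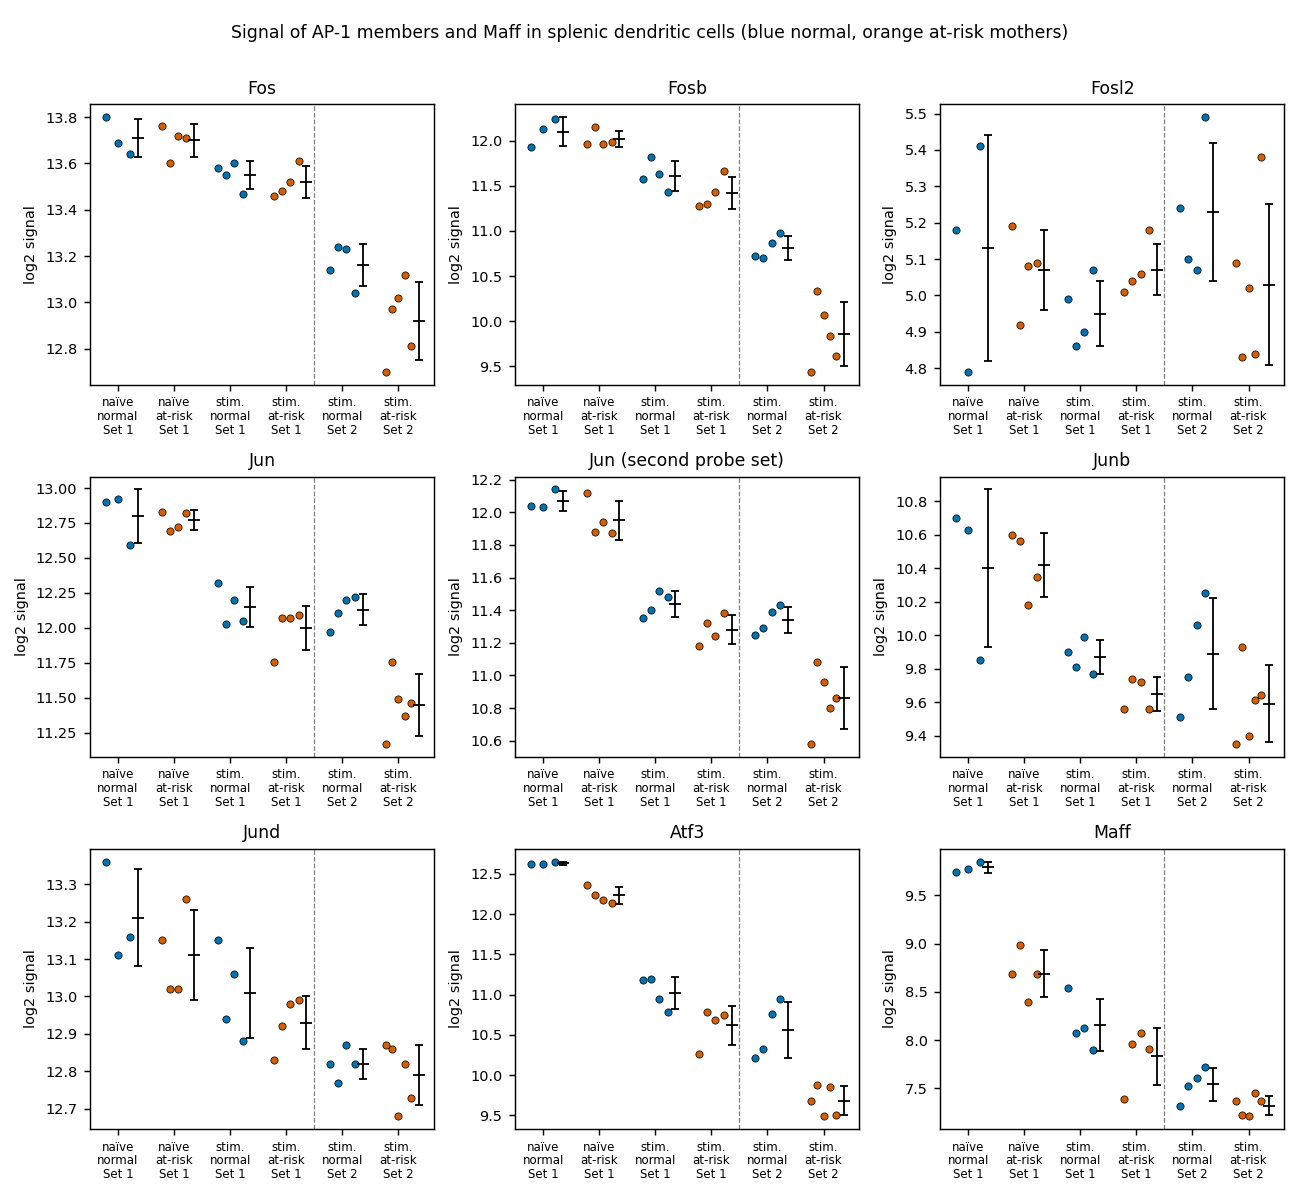
Log2 RMA signal (vertical axes, each panel with its own range that does not start at 0) of the 9 probe sets in each of the 24 arrays, by group, with blue points for pups of normal and orange for pups of asthmatic mothers, bars giving the mean and SD, and a dashed line between Set 1 and Set 2. Atf3 and Maff step down from naïve to stimulated groups in Set 1, and Fosb, Jun and Atf3 are lower in all 5 at-risk than in all 4 normal arrays of Set 2.

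Fos encodes the founding FOS subunit and is the textbook immediate early gene. Its log2 signal was 13.80, 13.69 and 13.64 in naïve normal DCs and 13.76, 13.60, 13.72 and 13.71 in naïve at-risk DCs. In stimulated DCs of Set 1 it was 13.58, 13.55, 13.60 and 13.47 in the normal group and 13.46, 13.48, 13.52 and 13.61 in the at-risk group. The maternal groups overlapped before and after allergen, and the naïve normal arrays all lay above the stimulated normal ones. The changes with allergen were -0.16 (SE 0.06, adjusted p = 0.121) in normal and -0.18 (SE 0.06, adjusted p = 0.0822) in at-risk pups, neither of which passed the test in limma. In Set 2 the arrays gave 13.14, 13.24, 13.23 and 13.04 in the normal group and 12.70, 12.97, 13.02, 13.12 and 12.81 in the at-risk group, a difference of -0.24 with a 95% interval of -0.45 to -0.04 and an adjusted p of 0.169.

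Fosb, a FOS subunit that also gives a truncated protein in some cells, moved over a wider range. Its signal was 11.93, 12.13 and 12.24 in naïve normal DCs and 11.96, 12.15, 11.96 and 11.99 in naïve at-risk DCs. It was 11.57, 11.82, 11.63 and 11.43 in stimulated normal DCs of Set 1 and 11.28, 11.30, 11.43 and 11.66 in stimulated at-risk DCs. Every stimulated array of Set 1 lay below every naïve array, while the maternal groups overlapped in both states. Fosb fell with allergen in normal pups (log2 change -0.49, SE 0.11, 1.40-fold, adjusted p = 0.00802) and in at-risk pups (log2 change -0.60, SE 0.10, 1.51-fold, adjusted p = 0.0012). In Set 2 the normal arrays gave 10.72, 10.70, 10.87 and 10.98 and the at-risk arrays 9.44, 10.33, 10.07, 9.84 and 9.62. The highest at-risk array, AF124, was thus below the lowest normal one, and Fosb fell (log2 change -0.955, SE 0.16, 1.94-fold, adjusted p = 0.00963), the largest change among the 8 genes in that set. In Set 1 the same maternal difference was -0.19 (SE 0.10, adjusted p = 0.747). Over both sets Fosb fell (log2 change -0.59, SE 0.14, adjusted p = 0.0324), a call that was lost with set as a random block (adjusted p = 0.0976) and without any 1 of 9 arrays (adjusted p up to 0.0864, without AF120).

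Fosl2, which encodes FRA-2, sat at the dim end of the arrays. Its signal spanned 4.79 to 5.41 in Set 1, and 4.83 to 5.49 in Set 2, around the lower quartile of all probe sets. Group means were 5.13 ± 0.31 (SD, n = 3) and 5.07 ± 0.11 (SD, n = 4) in naïve normal and at-risk DCs, 4.95 ± 0.09 and 5.07 ± 0.07 (SD, n = 4 each) in the stimulated groups of Set 1, and 5.23 ± 0.19 (SD, n = 4) and 5.03 ± 0.22 (SD, n = 5) in those of Set 2. No comparison between groups called it, with adjusted p from 0.364 to 0.995 in limma. It was called lower with allergen in normal pups only when AF77, its lowest naïve normal array, was left out (-0.34, adjusted p = 0.0267).

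Jun encodes c-JUN, which activates its own gene. By 1417409_at its signal was 12.90, 12.92 and 12.59 in naïve normal and 12.83, 12.69, 12.72 and 12.82 in naïve at-risk DCs. It was 12.32, 12.03, 12.20 and 12.05 in stimulated normal and 11.76, 12.07, 12.07 and 12.09 in stimulated at-risk DCs of Set 1. All naïve arrays were above all stimulated ones, and AF88 was the lowest of its group by a wide margin. Jun fell with allergen in normal pups (log2 change -0.65, SE 0.10, 1.57-fold, adjusted p = 5.86e-04) and in at-risk pups (log2 change -0.77, SE 0.095, 1.70-fold, adjusted p = 8.41e-05, and 2.63e-04 without AF88). In Set 2 it was 11.97, 12.11, 12.20 and 12.22 in normal and 11.17, 11.76, 11.49, 11.37 and 11.46 in at-risk DCs, which did not overlap. Jun fell there (log2 change -0.68, SE 0.11, 1.60-fold, adjusted p = 0.00739), against -0.15 (SE 0.095, adjusted p = 0.832) in Set 1. The second probe set, 1448694_at, gave -0.63 and -0.67 with allergen (adjusted p = 4.72e-05 and 1.43e-05) and -0.48 in Set 2 (adjusted p = 0.0212), also with groups that did not overlap. Over both sets Jun fell (log2 change -0.43, SE 0.098, adjusted p = 0.0298), a call that depended on each of 8 arrays, with an adjusted p of up to 0.0828 when 1 was left out.

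Junb, a JUN subunit that often counters c-JUN and has its own part in DC and helper T cell gene programs, had the widest spread within groups, with a pooled SD of 0.253 against 0.145 for the median probe set. Its naïve signals were 10.70, 10.63 and 9.85 in normal and 10.60, 10.56, 10.18 and 10.35 in at-risk DCs. After allergen they were 9.90, 9.81, 9.99 and 9.77 in normal and 9.56, 9.74, 9.72 and 9.56 in at-risk DCs of Set 1. AF79 stood below the other naïve arrays and inside the stimulated normal range, and the stimulated at-risk arrays all lay under the stimulated normal ones. Junb fell with allergen in at-risk pups (log2 change -0.78, SE 0.15, 1.72-fold, adjusted p = 0.00343). Its fall in normal pups (log2 change -0.53, SE 0.16, 1.44-fold, adjusted p = 0.0437) was lost when any 1 of 12 arrays was left out (adjusted p from 0.0521 to 0.162) and in a fit to the groups compared alone (adjusted p = 0.15). The maternal difference after allergen was -0.22 (SE 0.15, adjusted p = 0.852) in Set 1. In Set 2, where the arrays gave 9.51, 9.75, 10.06 and 10.25 against 9.35, 9.93, 9.40, 9.61 and 9.64 and overlapped, it was -0.31 (SE 0.16, adjusted p = 0.294).

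Jund, which in many cells is made steadily rather than on demand, was the steadiest member, with a pooled SD of 0.096. Its means in Set 1 were 13.21 ± 0.13 (SD, n = 3) in naïve normal DCs, and 13.11 ± 0.12 in naïve at-risk DCs, and 13.01 ± 0.12 and 12.93 ± 0.07 in DCs of stimulated normal and at-risk pups (SD, n = 4 each). Neighbors in that order overlapped. In Set 2 the means were 12.82 ± 0.04 (SD, n = 4) in normal and 12.79 ± 0.08 (SD, n = 5) in at-risk DCs. No comparison called Jund, and the changes with allergen were -0.20 (95% interval -0.39 to -0.016) and -0.18 (95% interval -0.35 to -0.01), with adjusted p of 0.143 and 0.211 in limma.

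Atf3, a stress-inducible partner of JUN proteins that restrains inflammatory cytokine genes in myeloid cells, was lower in each successive group of Set 1. Its signal was 12.62, 12.62 and 12.65 in naïve normal DCs and 12.36, 12.24, 12.17 and 12.14 in naïve at-risk DCs. All 4 at-risk arrays were below the 3 normal ones, yet the difference of -0.40 (SE 0.12, 1.32-fold) did not pass the test in limma (adjusted p = 0.166). After allergen the Set 1 arrays gave 11.18, 11.19, 10.94 and 10.78 in normal and 10.26, 10.78, 10.69 and 10.75 in at-risk DCs, with AF89 level with AF87 and AF88 far below the rest. The maternal difference there was again -0.40 (SE 0.11, adjusted p = 0.294), and -0.28 (adjusted p = 0.536) without AF88. Atf3 fell with allergen in normal pups (log2 change -1.61, SE 0.12, 3.05-fold, adjusted p = 1.03e-06) and in at-risk pups (log2 change -1.61, SE 0.11, 3.05-fold, adjusted p = 4.26e-07). In Set 2 it was 10.21, 10.32, 10.76 and 10.94 in normal and 9.68, 9.88, 9.49, 9.85 and 9.51 in at-risk DCs, and it fell (log2 change -0.88, SE 0.16, 1.84-fold, adjusted p = 0.012), a call lost by a small margin without AF120 (adjusted p = 0.0503). Over both sets Atf3 fell (log2 change -0.65, SE 0.12, 1.57-fold, adjusted p = 0.0123), the only member call there that was kept whichever of the 17 arrays was left out. In Set 1 its levels thus ran from naïve normal through naïve at-risk and stimulated normal to stimulated at-risk, and only the last 2 of these overlapped.

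Maff showed the largest maternal difference of the 8 genes in naïve DCs. Its signal was 9.74, 9.77 and 9.85 in naïve normal and 8.69, 8.99, 8.40 and 8.69 in naïve at-risk DCs, so that the groups were well apart. Maff fell (log2 change -1.095, SE 0.17, 95% interval -1.46 to -0.73, 2.14-fold, adjusted p = 0.0127), and without AF79 the adjusted p was 0.0509. After allergen the Set 1 arrays gave 8.54, 8.07, 8.13 and 7.90 in normal and 7.39, 7.96, 8.07 and 7.91 in at-risk DCs, which overlapped, with a difference of -0.33 (SE 0.16, adjusted p = 0.7). Maff fell with allergen in normal pups (log2 change -1.63, SE 0.17, 3.09-fold, adjusted p = 1.68e-05) and in at-risk pups (log2 change -0.86, SE 0.16, 1.81-fold, adjusted p = 0.00217), the latter from the lower starting level. In Set 2 it was 7.32, 7.52, 7.61 and 7.72 in normal and 7.37, 7.22, 7.21, 7.45 and 7.37 in at-risk DCs, and the difference of -0.22 (SE 0.09, adjusted p = 0.189) did not pass the test. Its order in Set 1 was that of Atf3, with the stimulated groups overlapping each other and the lowest naïve at-risk array, AF82 at 8.40, below the highest stimulated normal one, AF84.

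**Figure D2:**
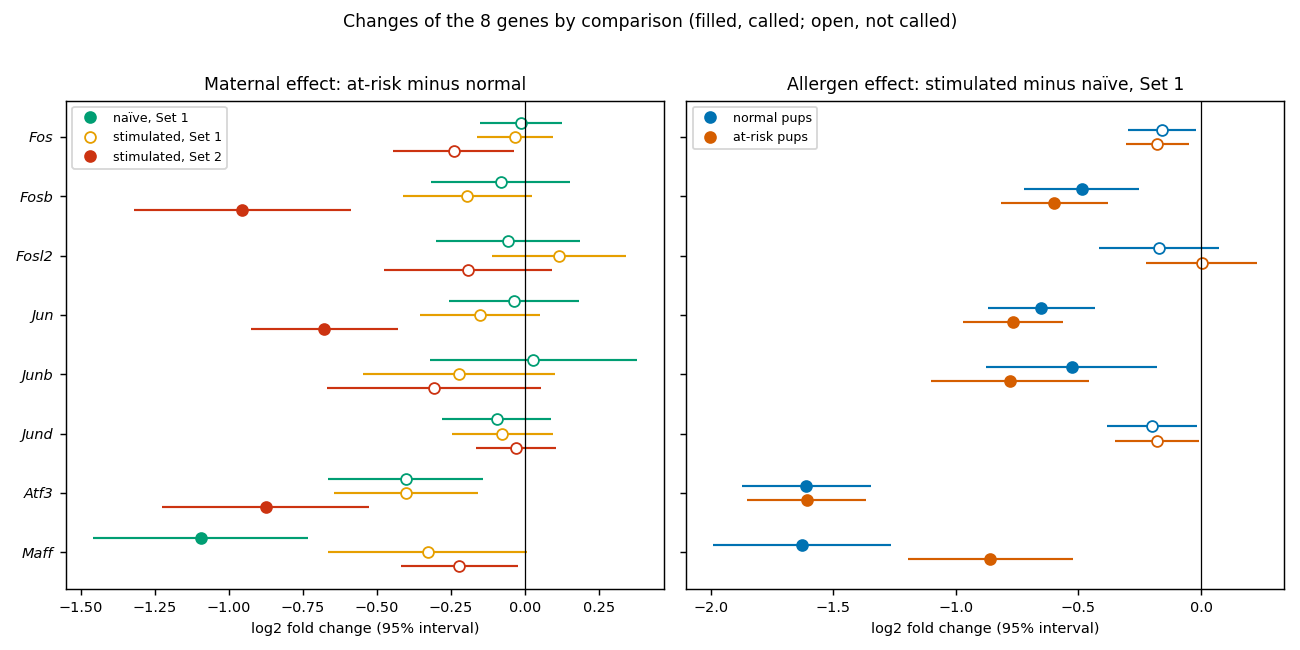
Log2 fold changes of the 8 genes (horizontal axes) with 95% intervals from limma, for the maternal effect in naïve and stimulated DCs (left) and the allergen effect in Set 1 (right), with filled points for called and open points for uncalled changes. Maff stands apart in the naïve comparison at -1.095, Fosb, Jun and Atf3 in Set 2, and Atf3 and Maff in the allergen comparisons.

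Differences between comparisons were tested directly. The maternal effect before and after allergen, compared within Set 1, differed by a call for 0 of 8 genes in limma, with 0.0486% of all probe sets called in either direction and 1903 at an unadjusted p under 0.05. For Maff the maternal effect was higher, that is less negative, after allergen by 0.77 (SE 0.23, 95% interval 0.27 to 1.26, adjusted p = 0.329), and for Atf3 it differed by 0.001 (95% interval -0.36 to 0.36). The same numbers compare the allergen effects of at-risk and normal pups. The maternal effect in stimulated DCs of Set 2 minus that of Set 1 was called for 0 of 8 genes, with 1.79% of all probe sets called and 3693 at an unadjusted p under 0.05. The largest such difference was that of Fosb, at -0.76 (SE 0.21, adjusted p = 0.0822), followed by Jun at -0.53 (SE 0.15, adjusted p = 0.0968) and Atf3 at -0.475 (SE 0.22, adjusted p = 0.301). With all 24 arrays in the fit Fosb was called (adjusted p = 0.0497), with array weights Fosb and Jun were, and leaving out AF88, AF124 or AF125 also gave a call of 1 or both.

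Genes around AP-1 were described from 6 lists. Counts of called genes are to be read beside those over all 22626 probe sets. With allergen 1303 were called lower and 1296 higher in normal pups, and 783 and 999 in at-risk pups. At-risk against normal, 54 were lower and 23 higher in naïve DCs, 461 and 584 in Set 2, and 94 and 297 over both sets. In stimulated DCs of Set 1 alone 16 were higher and 0 lower. Of 24 measured AP-1 and Maf relatives 4 fell and 1 rose with allergen in normal pups and 3 fell and 3 rose in at-risk pups. Those that fell included Nfil3, a leucine zipper repressor (-1.41 in normal, -0.855 in at-risk pups), and Cebpb, the C/EBP factor of myeloid cells (-1.18 and -0.89), and the one that rose in both was Nfe2, a CNC partner of small MAF proteins (0.805 and 1.18). Cebpb (-0.95) and Nfil3 (-0.425) fell also in at-risk DCs of Set 2, while 0 of the 24 were called in Set 1. The maternal effect on Cebpb differed between the sets (Set 2 minus Set 1, -0.88, adjusted p = 0.0121 in limma). Over both sets Cebpb fell (-0.53) and Atf5, an ATF relative, rose (0.72, adjusted p = 0.00919 in limma). Atf5 rose also with allergen in at-risk pups (0.76). Of 18 measured members of the MAP kinase cascade that leads to AP-1, 1 was called in any of these comparisons. This was Map3k8, at -0.34 with allergen in normal pups, where 5.76% of all probe sets were called lower.

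Of 10 measured feedback genes of MAP kinase signaling, 2 fell with allergen in each kind of pup, Spry2, a Sprouty inhibitor of receptor signaling (-1.49 in normal, -0.99 in at-risk pups), and Dusp2, a MAP kinase phosphatase (-0.99 and -0.67). Spry2 fell also in at-risk DCs, before allergen (-0.53) and in Set 2 (-1.14), while 0 of the 10 were called in stimulated DCs of Set 1. Its maternal effect differed between the sets (Set 2 minus Set 1, -1.11, adjusted p = 0.00852 in limma). Of 20 other immediate early genes 14 fell and none rose with allergen in normal pups, with a median of -0.64, and 12 fell and none rose in at-risk pups, with a median of -0.57. Among these were Gem, a small GTPase (-1.89 and -1.30), and Nr4a1, an orphan nuclear receptor (-1.19 and -1.15). In at-risk DCs 2 of the 20 fell before allergen, Phlda1 (-0.89) and Gem (-0.76), and 5 fell in Set 2, Rhob (-0.86) and Nr4a1 (-0.74) among them, while 0 were called in Set 1. Within Set 1 the maternal effect on Phlda1 was higher after allergen than before, by 0.89 (adjusted p = 0.0246 in limma).

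Of 16 textbook AP-1 target genes 8 fell and none rose with allergen in normal pups, and 5 fell and 1 rose in at-risk pups. Those that fell in both included Ptgs2, the inducible cyclooxygenase (-1.89 and -1.53), and Fasl (-2.39 and -1.735). Fasl is best known from T and NK cells, whose markers also fell, and the part of other cells in the changes of these targets was not tested. In at-risk naïve DCs 2 of the 16 fell, Il6 (-1.18) and Plaur, the urokinase receptor (-0.54). The maternal effect on Il6 was higher after allergen than before, by 1.1 within Set 1 (adjusted p = 0.0402 in limma). In at-risk DCs of Set 2, 5 fell, Ptgs2 (-1.64) and Mmp9, a gelatinase (-0.67), among them, and Timp1, an inhibitor of such proteases, rose (0.52). In Set 1, 0 of the 16 were called, and over both sets none fell and Timp1 rose (0.47). Set 2 minus Set 1, the maternal effect differed in limma for Ptgs2 (-1.645, adjusted p = 0.006), Mmp9 (-1.07, adjusted p = 0.00934) and Hmox1 (-0.77, adjusted p = 0.0159). Of 9 heat shock genes 1 rose in naïve at-risk DCs, Hsph1 (0.375, adjusted p = 0.0264), and 2 fell with allergen in normal pups, Hspa1a (-2.36) and Hspa1b (-1.96). In addition 3 fell in at-risk DCs of Set 2, Hspa1a (-2.725), Hspa1b (-1.77) and Dnajb1 (-0.495), of which Hspa1a and Hspa1b are near-identical paralogs whose signals may be shared.

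**Figure D3:**
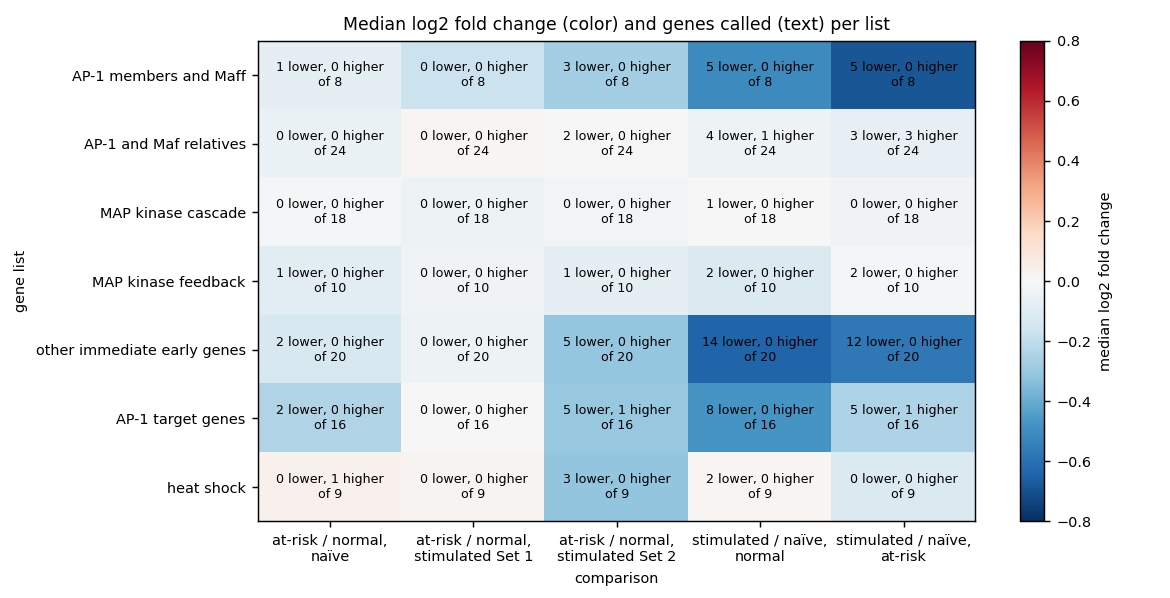
Median log2 fold change (color) and number of genes called lower and higher (text) for the 8 genes and 6 related lists (rows) in 5 comparisons (columns). The deepest blue fields are those of the 8 genes and the other immediate early genes with allergen, with medians from -0.51 to -0.68, while the MAP kinase cascade has medians near 0.

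Markers of other cells moved with several of these comparisons, and their counts are to be read beside those of all probe sets given with the gene lists. The summed intensity of 9 measured platelet markers was 593 to 783 in naïve arrays and 9196 to 17403 in stimulated arrays of Set 1, and 8 and 9 of them rose with allergen in normal and at-risk pups. In Set 2 it was 949 to 1184 in normal and 2730 to 6872 in at-risk DCs, and 8 of 9 rose. T cell markers, 7 measured, went the other way. Their sum was 7813 to 8293 in naïve normal, 6198 to 6549 in naïve at-risk, 2402 to 6184 in stimulated normal and 2933 to 3325 in stimulated at-risk DCs of Set 1. With allergen 7 of the 7 fell in normal and 6 in at-risk pups, and in at-risk DCs of Set 2, where the sum was 3950 to 5013 against 5478 to 5714, 5 fell. Of 6 measured NK cell markers 5 fell with allergen in each kind of pup and 5 in Set 2, and of 9 macrophage markers 6 fell in normal pups, 4 in at-risk pups and 3 in Set 2. In at-risk DCs of Set 2, 6 of 7 stromal and 5 of 9 endothelial markers rose. With allergen in at-risk pups 6 of the 9 endothelial markers rose and 1 fell, and in normal pups 1 rose and 1 fell. Over both sets 8 platelet, 5 endothelial, 4 erythroid, 2 stromal and 2 neutrophil markers rose in at-risk DCs, and 1 T cell and 2 NK cell markers fell. Of 7 erythroid markers 6 rose with allergen in each kind of pup and 1 in at-risk DCs of Set 2, of 8 neutrophil markers 5 fell and 1 rose in normal pups but 2 rose and none fell in at-risk pups, of 5 plasma cell markers 2 fell in normal and 1 in at-risk pups, and of 5 B cell markers 2 rose in at-risk DCs of Set 2. Between the stimulated groups of Set 1, 1 of the 8 neutrophil markers rose in at-risk DCs and no marker of another list was called. The median change of the neutrophil markers there was 0.82. Their sum was 35342 to 41783 in normal and 47477 to 56938 in at-risk DCs, which did not overlap.

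Of the DC markers 2 rose and none fell with allergen in normal pups, 0 of 11 were called in the other comparisons, and their summed intensity was 99688 to 110391 in all arrays. That sum is carried mostly by the brightest markers, Cd74 and the MHC class II genes, and says little of the dimmer ones. Over all arrays of both sets, Xcr1 ran from 9.80 to 11.38, Zbtb46 from 10.58 to 11.99 and Flt3 from 10.96 to 11.81 in log2. In naïve DCs, where Maff fell, 0 of the markers in any cell list were called, though the sums of the T cell markers and of the plasma cell markers (14895 to 16472 in normal, 12519 to 13953 in at-risk DCs) did not overlap between the groups. In these bulk preparations fewer cells of a type and less RNA per cell cannot be told apart, and the part of other cells in the changes of Fosb, Jun, Junb, Atf3 and Maff was not tested.

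**Figure D4:**
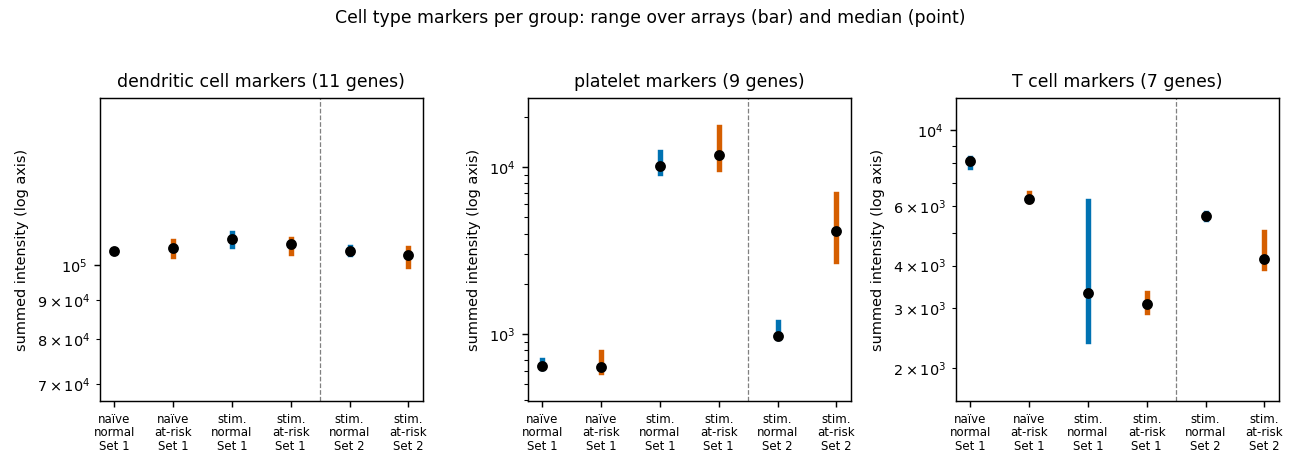
Summed intensity (log axes) of DC, platelet and T cell markers per group, with bars from the lowest to the highest array, points at the median, and a dashed line between the sets. Platelet sums are at most 783 in naïve and at least 9196 in stimulated groups of Set 1, while DC sums lie between 99688 and 110391 throughout. The DC sum is carried mostly by its brightest markers.

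Members often shared their extremes within a group. AF88 was the lowest of the 4 stimulated at-risk arrays of Set 1 for 8 of 8 genes, and AF87 the lowest stimulated normal one for 6. In Set 2 AF123 was the lowest at-risk array for Fos, Fosb, Jun and Junb, and AF118 and AF121 were the lowest and highest normal arrays for Jun, Junb, Atf3 and Maff. The allergen calls of at-risk pups numbered 5 with and without AF88, and the calls in Set 2 numbered 3 with and without AF123, where the changes were -0.85 for Fosb, -0.61 for Jun and -0.88 for Atf3.

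Likeness between genes was described by Pearson's r over the 24 arrays after the mean of each set was subtracted, points that share group, set and cell makeup. Jun went with Atf3 (0.914), Fosb (0.874) and Junb (0.859), and Atf3 with Maff (0.872). Fos went with Jun (0.789) and Fosb (0.773) and less with Maff (0.475). The 3 genes outside the family most like Jun were Cebpb (0.965), Nr4a1 (0.964) and Rgs1 (0.961), and those most like Fos were Klf6 (0.904), Zfp36 (0.898) and Epb41l3 (0.892). Atf3 was most like Eomes (0.962), which is also on the NK cell list, Ccrl2 (0.959) and Cd14 (0.958). Maff was most like Bhlhe40 (0.952), Nfil3 (0.922) and Phlda1 (0.92).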

How the data were processed

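RNA of splenic CD11c+ DCs was hybridized to Affymetrix Mouse430A 2.0 arrays. The authors normalized each set by RMA (quantile normalization, median polish) and left out 1 outlier array per set. The methods name a RefSeq-based probe definition, but the deposited table had Affymetrix probe set names. Its intensity values, deposited on a linear scale, were turned to log2 here (the design had assumed log2). Controls (64 of 22690 probe sets) were left out. GEO's platform table gave 20380 probe sets a single symbol, 691 several and 1555 none, and a gene was represented by its brightest probe set. The sets were told apart by array numbers.

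Groups were compared with limma 3.58.1 (R 4.3.3), within Set 1, within Set 2 or over the 17 stimulated arrays with set as a term, after a check on simulated data. Other normalizations, filters, array weights and leaving out each array were tried. Precision is limited by the number of arrays, and p-values measure the spread between arrays. Members and lists were chosen with earlier results of these data known. The genes named were all members, at most 4 called genes with the smallest adjusted p per list and comparison, and the 3 genes most like Fos, Jun, Atf3 and Maff.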

Additional observations from a re-analysis of the deposited data

Results flagged for a closer look

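Of 45 groups of member values, 3 held an array far from the others, and chance flags about 1 in 20 groups. In stimulated at-risk DCs of Set 1, AF88 was low for Jun (1417409_at, 11.76), with a gap to the next array of 0.921 of the group's range, and for Atf3 (10.26), with a gap of 0.834. In naïve at-risk DCs AF81 was high for Fosb (12.15), with a gap of 0.854 of the range.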

How the results depend on the processing

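Calls over both sets depended on the term for set, since 0 of 8 genes were called without it (adjusted p 0.108 for Jun, 0.158 for Atf3 and 0.474 for Fosb), against 3. The difference between the sets was called for 1 gene with all 24 arrays in the fit and for 2 with array weights (Fosb adjusted p = 0.0268, Jun 0.0154), against 0. When each array was left out in turn, the count of genes called was 0 to 1 in naïve DCs, 1 to 3 in stimulated DCs over both sets (1 without AF88, AF118, AF119, AF120, AF121, AF126 or AF127) and 0 to 2 for the difference between the sets.

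Directions that turned all belonged to changes that were not called. In naïve DCs the change of Fos was 0.005 with quantile normalization over 24 arrays, and with array weights those of Fosl2 and Junb were 0.093 and -0.194. With arrays centred on their median that of Fosl2 with allergen in at-risk pups was -0.023. With array weights the difference of the maternal effects was 0.008 for Fos and 0.028 for Jun between stimulated and naïve DCs, and 0.042 for Junb between the sets. With 1 array left out, the naïve change ran from -0.049 to 0.033 for Fos, -0.143 to 0.022 for Jun, -0.224 to 0.085 for Fosl2 and -0.243 to 0.183 for Junb. That of Fosl2 ran from -0.081 to 0.009 in stimulated DCs over both sets and from -0.048 to 0.042 with allergen in at-risk pups. The difference between stimulated and naïve DCs ran from -0.055 to 0.069 for Jund, -0.067 to 0.016 for Fos, -0.406 to 0.02 for Junb, -0.081 to 0.121 for Atf3 and -0.072 to 0.017 for 1448694_at of Jun. The difference between the sets ran from -0.001 to 0.089 for Jund, -0.04 to 0.193 for Maff and -0.21 to 0.035 for Junb. The causes were not tested.

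Apart from these and the lost calls named with each gene, the fall of Junb with allergen in normal pups was lost with all 24 arrays in the fit (adjusted p = 0.0569), and 1448694_at of Jun lost its call over both sets or in Set 2 under some settings. Of 1062 values with 1 array left out 982 kept both direction and call, and of 686 under other settings 667 did. Within Set 1, a change could not move when the array left out was outside the groups compared. Counts over all probe sets moved more. In naïve DCs they were 12 with only the naïve groups fitted and over 1.5 times the 77 of the fit used here with all 24 arrays, and Maff was called under each (adjusted p = 0.0443 and 7.46e-04). In stimulated DCs over both sets they were 226 without dim probe sets and 726 with all 24 arrays, against 391, and lower still with no term for set. They ran from 0 to 71 against 16 in Set 1, were 632 without dim probe sets and 3136 with array weights against 1045 in Set 2, and reached 42 against 11 and 2454 against 404 with array weights for the differences between allergen states and between sets. With 1 array left out they ran from 44 (AF83) to 269 (AF77) in naïve DCs, from 139 (AF119) to 578 (AF90) over both sets, from 2 (AF86 or AF87) to 61 (AF90) in Set 1, from 504 (AF120) to 1546 (AF125) in Set 2, from 1 to 30 (AF90) for the difference between allergen states and from 204 (AF119) to 989 (AF125) for that between sets, so the shares of all probe sets called move with them. No paired analysis was possible because array numbers pair no samples. Array signal, near the lower quartile for Fosl2, limits what can be said of that gene.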
